A study of Mus musculus with 11 samples.

Results

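MERVL is an endogenous retrovirus of the mouse, and its copies are annotated as an internal part (MERVL-int), a related internal part (MERVL_2A-int) and the long terminal repeat MT2_Mm that flanks MERVL-int. Every feature of the deposited repeat table whose repeat name begins with MERVL or MT2_Mm was taken, which gave 727 of 442429 features. They hold 8140 genomic copies of the ERVL family: 186 MERVL-int features with 2422 copies, 345 MERVL_2A-int features with 3308 copies, and 196 MT2_Mm features with 2410 copies. A feature joins copies of a repeat name that carry the same number on different chromosomes, so most features are not a single locus. Feature names run to at least MERVL-int_dup192, MT2_Mm_dup206 and MERVL_2A-int_dup372. These numbers exceed the features listed, so some numbers are absent and the copy counts cover listed copies only.

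The study sequenced poly(A)-selected RNA from J1 mouse embryonic stem (ES) cells at day 0, with 1 library for each of 3 genotypes. TKO_602 and TKO_FL are set here against TKO, spelled DNMT TKO in the labels of other samples. No source used here gives the meaning of FL or of 602. All the ES cells grew on mitomycin-treated embryonic fibroblast feeders in serum medium with LIF. The repeat values cover TKO_FL and TKO, while the gene counts cover all 3 libraries. With 1 library per genotype no test was possible. Each difference lies between 2 libraries, and the 95% exact binomial intervals given cover counting error only. In bulk RNA, fewer cells that transcribe a repeat and less repeat RNA per cell cannot be told apart.

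MERVL is transcribed in a burst when the embryonic genome is switched on at the 2-cell stage, and MT2_Mm serves as the promoter of the virus and of host genes that lie next to a copy. In ES cultures it is known to be active in a rare, transient population called 2-cell-like cells. The double homeodomain factor DUX activates MT2_Mm there, and TRIM28, SETDB1, EHMT2 and KDM1A are among the factors known to keep MERVL silent.

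The sequence of MT2_Mm can be read where a copy forms the annotated start of a gene. The windows printed here are the 250 bases before a RefSeq transcription start (GRCm38.p6, whose chromosome coordinates are those of mm10), and they show the LTR that the summed values describe. Gm4340 stands for a cluster of near-identical 2-cell genes on chromosome 10, Sp110 for the MT2_Mm feature with the lowest TKO_FL to TKO ratio among those with at least 10 fragments, and Pemt, Arih2 and LOC105246046 are the genes of this kind with at least 1 TPM, the number of fragments per length scaled to a fixed total per library. The windows lie at chr10:104193792-104194041 on the plus strand (Gm4340), chr1:85603892-85604141 on the minus strand (Sp110), chr11:60040189-60040438 on the minus strand (Pemt), chr9:108653682-108653931 on the minus strand (Arih2) and chr15:102602758-102603007 on the plus strand (LOC105246046). Capitals mark the core GATTGAATC or its closest match, of the type bound by DUX, and further on the TATA-type letters ATATAAGG.
Gm4340: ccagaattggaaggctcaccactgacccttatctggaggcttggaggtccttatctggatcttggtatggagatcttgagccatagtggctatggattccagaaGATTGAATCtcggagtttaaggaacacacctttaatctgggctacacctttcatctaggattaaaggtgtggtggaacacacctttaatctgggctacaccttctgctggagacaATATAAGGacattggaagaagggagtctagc
Sp110: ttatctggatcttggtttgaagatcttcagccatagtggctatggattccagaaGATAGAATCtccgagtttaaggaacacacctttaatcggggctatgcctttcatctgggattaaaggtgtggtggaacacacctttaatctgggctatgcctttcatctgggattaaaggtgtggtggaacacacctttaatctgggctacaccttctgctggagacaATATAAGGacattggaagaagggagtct
Pemt: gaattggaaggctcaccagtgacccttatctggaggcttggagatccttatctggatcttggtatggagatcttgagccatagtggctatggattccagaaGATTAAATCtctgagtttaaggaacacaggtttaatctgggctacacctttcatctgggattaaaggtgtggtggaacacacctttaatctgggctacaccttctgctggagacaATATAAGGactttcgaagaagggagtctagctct
Arih2: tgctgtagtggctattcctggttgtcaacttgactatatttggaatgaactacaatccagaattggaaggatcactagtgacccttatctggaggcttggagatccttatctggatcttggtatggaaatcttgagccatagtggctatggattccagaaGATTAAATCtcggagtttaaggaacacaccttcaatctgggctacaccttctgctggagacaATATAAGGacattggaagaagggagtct
LOC105246046: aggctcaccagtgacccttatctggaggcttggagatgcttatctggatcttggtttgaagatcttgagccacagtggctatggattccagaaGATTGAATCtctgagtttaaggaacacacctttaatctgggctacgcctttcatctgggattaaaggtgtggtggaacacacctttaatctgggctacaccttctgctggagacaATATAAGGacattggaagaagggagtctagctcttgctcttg
The Gm4340 window carried the core at position -146 and the TATA-type letters at position -31, counted from the transcription start. Pemt and Arih2 differed from the core by G5A and Sp110 by T4A, with positions counted from 1 at the 5′ end of the core. By local alignment with Gm4340, LOC105246046 was 96.2% identical over 239 columns and Pemt 96.4% over 247, whereas Sp110 reached 76.0% over 250 and Arih2 76.1% over 247. These columns include gaps, so a stretch present in only 1 of the 2 aligned windows lowers the identity. The unit GGAACACAC (reverse complement GTGTGTTCC) recurred 3 times in Sp110, 2 times in Gm4340 and LOC105246046, and 1 time in Pemt and Arih2. For Sp110 and Arih2 the identity and the number of units are therefore not separate differences. The unit was chosen after the windows were read. Of all 32851 RefSeq windows, which are 300 bases long, 130 (0.396%) held it on either strand. In 17 windows (0.0517%) it was present at least 2 times.

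Of those 32851 windows, 28 overlapped a copy of the 3 repeat names: 21 an MT2_Mm copy, 4 a MERVL_2A-int copy and 3 a MERVL-int copy. In 19 windows, of 18 genes, at least 250 bases lay in an MT2_Mm copy on the strand of the gene. The core GATTGAATC, searched on both strands (reverse complement GATTCAATC), was present in 15 of the 19 and in 49 of all windows (0.149%), and the other 4 held it with 1 substitution. ATATAAGG (reverse complement CCTTATAT) was present in 19 of the 19 and in 255 of all windows (0.776%). The 2 motifs do not overlap. The 19 windows all lie in copies of 1 LTR and are not independent of each other. An annotated start of Pou5f1, a core pluripotency gene, has 192 bases of its window in an MT2_Mm copy on the opposite strand. Pou5f1 had 1926 TPM in TKO_FL and 2069 TPM in TKO.

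Most genes that start in MT2_Mm had few fragments or none in both libraries. Of the 18 genes, 12 were in the gene table, and 7 of them, including Gm4340 and 5 neighbours in its cluster, were listed at 0 TPM in both libraries. The gene table left out reads that map equally well to several places, so a 0 for a gene with near-identical copies does not show that it was silent. Pemt, which makes phosphatidylcholine in the liver, had 8.41 TPM in TKO_FL and 7.31 TPM in TKO. Arih2, a ubiquitin ligase, had 64.3 TPM in TKO_FL and 49.7 TPM in TKO. LOC105246046 had 2.24 TPM in TKO_FL and 2.496 TPM in TKO, from 5 fragments in TKO_FL and 6 in TKO. Pemt and Arih2 each have another annotated start outside MT2_Mm, and the table adds reads of all transcripts of a gene. Sp110, a nuclear body protein gene, had 0 fragments in TKO_FL and 2 in TKO.

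As annotated, the internal part is mostly fragmented. MERVL-int copies had a median length of 382.5 bases, and 772 of the 2422 were exactly 38 bases long. At least 5000 bases were present in 551 copies. Of these, 514 had an MT2_Mm copy on the same strand within 150 bases on both sides, 17 on 1 side and 20 on neither, and the complete proviruses spanned a median of 6434 bases. MT2_Mm copies had a median of 492 bases, with 1397 of 2410 beside a MERVL-int copy and 1013 away from one. MERVL_2A-int copies had a median of 270.5 bases. All these counts, also of copies without a neighbour, cover the listed copies only.

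The libraries differed in other respects that move with the genotypes. Dnmt1, the maintenance DNA methyltransferase, had 1177 TPM in TKO_FL and 54.9 TPM in TKO, and 2444 CPM in TKO_602, 3364 CPM in TKO_FL and 159 CPM in TKO, where CPM is reads scaled by library size with TMM factors. All 9 primitive endoderm markers were at least 2-fold lower in TKO_FL, beside 3.06% of 13642 genes, with a summed 19.6 TPM in TKO_FL and 156 TPM in TKO, and none was at 0. Of 11 measured feeder fibroblast markers, 4 were at least 2-fold lower in TKO_FL, with a sum over the list of 427 TPM in TKO_FL and 814 TPM in TKO. The lowest feeder marker, Lum, had 1 fragment in TKO_FL and 2 in TKO. The feeder markers summed to 620 CPM in TKO_602, 455 CPM in TKO_FL and 840 CPM in TKO, and the primitive endoderm markers to 73.8 CPM in TKO_602, 44.7 CPM in TKO_FL and 383 CPM in TKO. The 6 pluripotency markers summed to 5196 TPM in TKO_FL and 4481 TPM in TKO. The part of these differences in the values of MERVL, MT2_Mm and the 2-cell genes was not tested. The repeat table held 1179815 fragments in TKO_FL and 1327700 in TKO, and the gene counts summed to 43158441 reads in TKO_602, 19573689 in TKO_FL and 21133660 in TKO.

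Summed over features, the internal part and the LTR stood at almost the same level in both libraries. MERVL-int had 121 TPM in TKO_FL and 126 TPM in TKO, a log2 fold of -0.06 with a pseudocount of 1 TPM. MT2_Mm had 99.6 TPM in TKO_FL and 101 TPM in TKO (log2 -0.02). MERVL_2A-int, the related internal part, had 77.7 TPM in TKO_FL and 89.1 TPM in TKO (log2 -0.19). None of the 3 names was 2-fold different.

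A sum of TPM gives a short feature with few fragments as much weight as a long one with many. When all fragments of a name were divided by all its bases, which is called the pooled TPM here, MERVL-int had 0.460 TPM in TKO_FL (2171 fragments) and 0.564 TPM in TKO (2859 fragments). This pooled level was 18.4% lower in TKO_FL (log2 -0.29, interval -0.37 to -0.21). MT2_Mm had a pooled 0.470 TPM in TKO_FL (605 fragments) and 0.521 TPM in TKO (721 fragments), a log2 fold of -0.15 (interval -0.31 to 0.01). MERVL_2A-int had a pooled 0.443 TPM in TKO_FL and 0.448 TPM in TKO (log2 -0.01, interval -0.15 to 0.12). The interval left out equal levels for MERVL-int and held them for the other names. Over all 727 features the pooled level was 0.457 TPM in TKO_FL and 0.528 TPM in TKO (log2 -0.21, interval -0.27 to -0.14), and the features held 0.311% of all repeat fragments in TKO_FL and 0.343% in TKO.

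**Figure D1:**
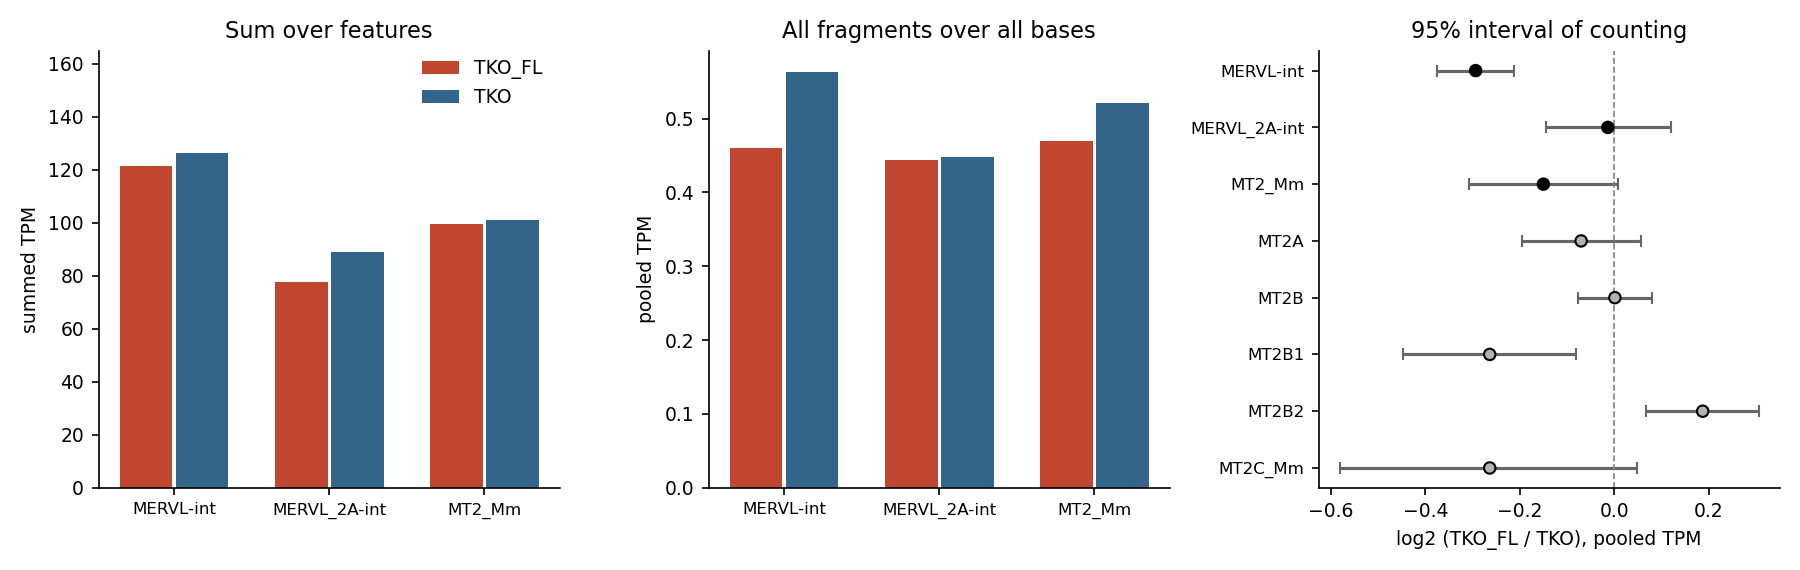
Levels of MERVL-int, MERVL_2A-int and MT2_Mm in the TKO_FL (red) and TKO (blue) libraries, as summed TPM (left) and pooled TPM (middle), and log2 of the pooled TKO_FL to TKO ratio with its 95% interval of counting (right; black points for the 3 names, grey for 5 other MT2 LTR names). The summed MERVL-int bars nearly match at 121 TPM in TKO_FL and 126 TPM in TKO, while the pooled bars stand at 0.460 TPM in TKO_FL and 0.564 TPM in TKO.

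The difference between the summed and the pooled result of MERVL-int rested on 1 feature. MERVL-int_dup170 joins 4 copies with 880 bases in all, and had 39.1 TPM in TKO_FL (40.5 fragments) and 24.4 TPM in TKO (27.2 fragments), a log2 fold of 0.66 with the pseudocount (interval of the ratio -0.03 to 1.46). It alone made up 32.2% of the summed MERVL-int level in TKO_FL and 19.3% in TKO. Its 1 long copy, of 766 bases, lies at chr7:143635674-143636439 on the minus strand, wholly inside an exon of Tnfrsf22 on the same strand. Tnfrsf22, a decoy receptor gene, had 7.45 TPM in TKO_FL and 6.63 TPM in TKO. Without MERVL-int_dup170, MERVL-int summed to 82.4 TPM in TKO_FL and 102 TPM in TKO (log2 -0.31). The next features by level were MERVL-int_dup179, MERVL-int_dup149, MERVL-int_dup178 and MERVL-int_dup76. MERVL-int_dup179, a single 457-base copy at chr1:180012220-180012676 on the minus strand, had 5.57 TPM in TKO_FL and 2.30 TPM in TKO, from 3 fragments in TKO_FL and 1.33 in TKO. MERVL-int_dup178, a single copy beside it, had 1.397 TPM in TKO_FL and 2.62 TPM in TKO. MERVL-int_dup76, which joins 18 copies, had 1.09 TPM in TKO_FL and 1.45 TPM in TKO. The intervals of these 3 held equal levels.

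A few features that touch exons of expressed host genes held much of the summed TPM of the internal parts, but for MERVL-int few of its fragments. Exons of RefSeq genes with at least 1 TPM in one library were touched by 7 MERVL-int features, 14 MERVL_2A-int features and 9 MT2_Mm features. The 7 MERVL-int features held 34.8% of the summed level in TKO_FL and 22.2% in TKO, most of it from MERVL-int_dup170, and 5.98% of the MERVL-int fragments in TKO_FL and 5.16% in TKO. The 14 MERVL_2A-int features held 50.03% in TKO_FL and 44.4% in TKO, and the 9 MT2_Mm features 20.3% in TKO_FL and 19.4% in TKO. By fragments, the MERVL_2A-int features held 69.1% in TKO_FL and 70.01% in TKO, and the MT2_Mm features 31.7% in TKO_FL and 28.04% in TKO. Outside these features, MERVL-int had 79.2 TPM in TKO_FL and 98.4 TPM in TKO (log2 -0.31), and MERVL_2A-int had 38.8 TPM in TKO_FL and 49.5 TPM in TKO (log2 -0.34). MT2_Mm outside them had 79.4 TPM in TKO_FL and 81.3 TPM in TKO (log2 -0.04). The pooled level outside them gave another order. It was 0.4499 TPM in TKO_FL and 0.556 TPM in TKO for MERVL-int (log2 -0.31, interval -0.39 to -0.22), and 0.343 TPM in TKO_FL and 0.402 TPM in TKO for MT2_Mm (log2 -0.23, interval -0.42 to -0.04). For MERVL_2A-int it was 0.151 TPM in TKO_FL and 0.148 TPM in TKO (log2 0.03, interval -0.21 to 0.28), so the lower summed TPM of that name outside exons was not present in its pooled level. A feature was set aside whole where any of its copies touched such an exon, because its fragments cannot be assigned to a copy.

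**Figure D2:**
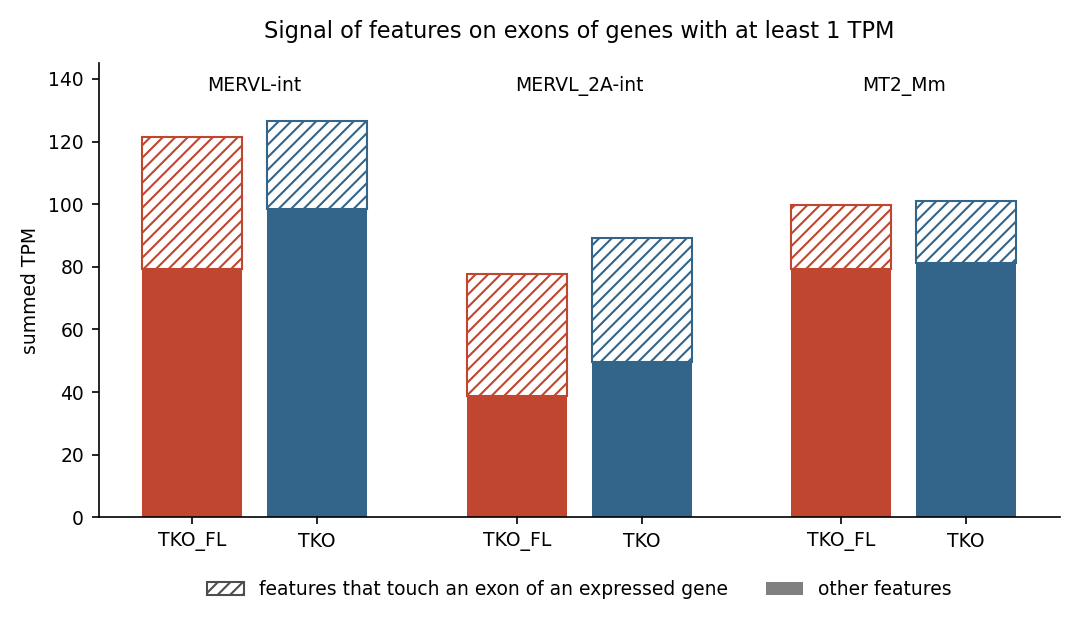
Summed TPM (vertical axis) of each repeat name in TKO_FL and TKO, divided into features that touch an exon of a RefSeq gene with at least 1 TPM (hatched) and all other features (solid). The solid part of MERVL-int is 79.2 TPM in TKO_FL and 98.4 TPM in TKO, and the hatched part makes up 50.03% of the MERVL_2A-int bar in TKO_FL and 44.4% in TKO.

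The 3 strongest MERVL_2A-int features were of this kind and barely differed. MERVL_2A-int_dup45 had 15.9 TPM in TKO_FL (225 fragments) and 16.5 TPM in TKO (251 fragments). A 424-base copy of it, at chr2:28470262-28470685 on the plus strand, lies in an exon of Mrps2, a mitochondrial ribosomal protein gene with 96.8 TPM in TKO_FL and 97.98 TPM in TKO. MERVL_2A-int_dup54 had 10.8 TPM in both libraries, and MERVL_2A-int_dup55 had 8.44 TPM in TKO_FL and 9.06 TPM in TKO. Both have a copy in exons of B230354K17Rik on chromosome 17, which had 15.2 TPM in TKO_FL and 15.5 TPM in TKO. The next highest, which touch no expressed exon, were MERVL_2A-int_dup276 and MERVL_2A-int_dup162. MERVL_2A-int_dup276 had 5.21 TPM in TKO_FL and 2.96 TPM in TKO, and MERVL_2A-int_dup162 had 4.67 TPM in TKO_FL and 3.47 TPM in TKO. Their intervals held equal levels.

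Among LTR features, MT2_Mm_dup149 was highest, with 21.5 TPM in TKO_FL and 19.8 TPM in TKO. It joins 6 copies and touches no exon of an expressed gene. MT2_Mm_dup61, of which a copy reaches 30 bases into an exon of Naa35, had 13.3 TPM in TKO_FL and 13.7 TPM in TKO. MT2_Mm_dup188, a single copy on chromosome 1, had 3.41 TPM in TKO_FL (2 fragments) and 3.49 TPM in TKO (2.2 fragments). MT2_Mm_dup102, which holds the start of Arih2, had 3.44 TPM in TKO_FL and 2.96 TPM in TKO. Equal levels lay within the counting interval of each of these 4 features. MT2_Mm_dup87 did not follow them, with 0.984 TPM in TKO_FL (9 fragments) and 4.67 TPM in TKO (45.9 fragments), a log2 fold of -1.51 with the pseudocount (interval of the ratio -3.47 to -1.20). It joins 17 copies, 1 of which is the start of Sp110 printed above, and which copy gave the fragments was not determined.

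Few single features were 2-fold different. In 42 features one of the libraries reached 1 TPM, which was both libraries for 19, TKO_FL alone for 5 and TKO alone for 18. Of these, 3 were 2-fold or more higher and 8 were 2-fold or more lower in TKO_FL on the log2(TPM + 1) scale, beside 21.3% higher and 23.9% lower among 53781 repeat features. The 3 higher ones were MT2_Mm features with at most 2 fragments: MT2_Mm_dup187 (2 in TKO_FL and 0.33 in TKO), MT2_Mm_dup181 (2 in TKO_FL and 0.2 in TKO) and MT2_Mm_dup200 (0.6 in TKO_FL and 0 in TKO). The lower ones were 5 MERVL_2A-int features, 2 MERVL-int features and MT2_Mm_dup87. The MERVL_2A-int features had at most 6 fragments in a library, as in MERVL_2A-int_dup238 with 0 in TKO_FL and 6 in TKO. MERVL-int_dup149 had 0.702 TPM in TKO_FL (2 fragments) and 4.90 TPM in TKO (15 fragments), a log2 fold of -1.79 with the pseudocount. Of 8 features with at least 5 TPM, 0 were 2-fold different, and with a pseudocount of 5 TPM 0 of the 42 were. No fragment was listed in either library for 272 of the 727 features.

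Most MERVL-int features with at least 10 fragments in one library were lower in TKO_FL. There were 115 such features: 93 reached 10 fragments in both libraries, 7 in TKO_FL alone and 15 in TKO alone. A feature that passes in TKO alone tends to be lower in TKO_FL by the choice of features. Of the 115, 88 (76.5%) were lower in TKO_FL by any amount, beside 53.3% of 17384 repeat features with the same minimum of fragments. The median log2 fold without a pseudocount was -0.32 for the 115, with a middle range of -0.56 to -0.03, and -0.05 for all features. The shift was small for a single feature: 5 of the 115 (4.35%) had an interval below equal levels and 0 above. Among all features with this minimum the shares were 12.8% below and 10.3% above. The 2 sets were not matched for depth beyond the minimum, and the width of an interval depends on depth. Only 14 MERVL_2A-int and 5 MT2_Mm features had 10 fragments. Of these, 6 MERVL_2A-int and 2 MT2_Mm features were lower. The features are not independent, since 94.7% of MERVL-int features with signal in TKO_FL and 95.9% in TKO held fractions of a fragment, shared out over copies that the reads fit. That share was 92.9% in TKO_FL and 95.2% in TKO for MT2_Mm, 19.2% in TKO_FL and 22.4% in TKO for MERVL_2A-int, and 15.2% in TKO_FL and 15.02% in TKO for all repeat features. The smallest part of a fragment listed was 0.2, so reads that fit many copies were not spread over all of them. How those copies were picked is not given. Because reads are shared out in this way, the number of lower MERVL-int features does not show how many copies were lower.

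**Figure D3:**
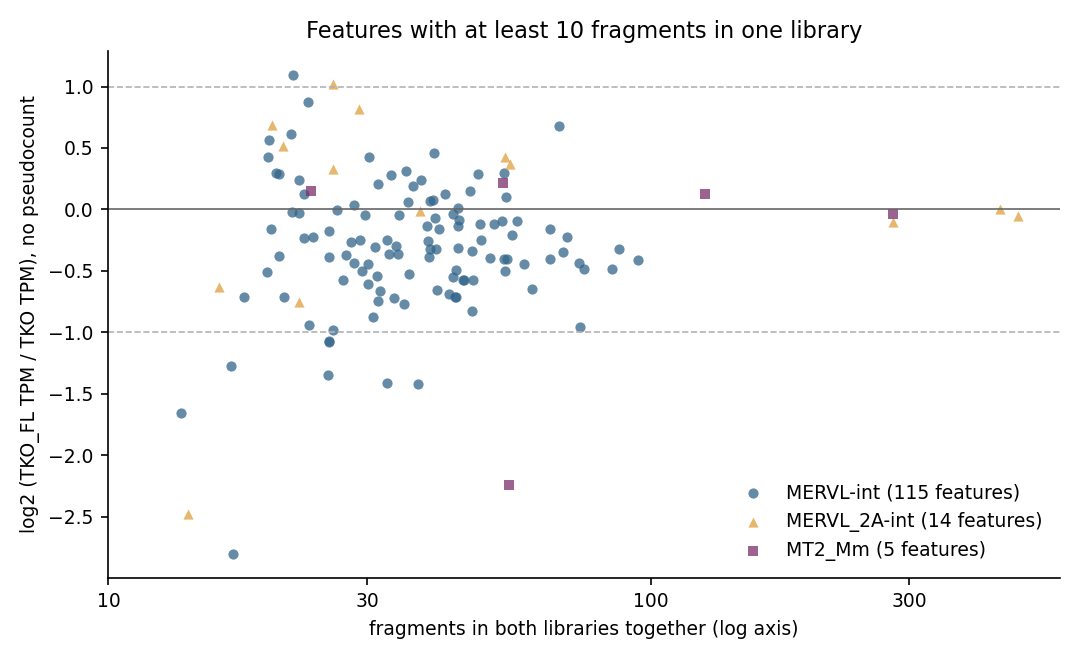
log2 of the TKO_FL to TKO ratio of TPM, without a pseudocount, against the fragments of both libraries together (log axis) for each feature with at least 10 fragments in one library; dashed lines mark 2-fold. Of 115 MERVL-int features (blue circles) 88 lie below 0, most of them within the 2-fold lines, and the low square is MT2_Mm_dup87.

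The lower pooled level of MERVL-int was present in both large classes of features by copy length. MERVL-int features were grouped by the share of their copies with at least 5000 bases. In the 94 features with a share above 0 and up to 25%, the pooled level was 0.450 TPM in TKO_FL and 0.545 TPM in TKO (log2 -0.28, interval -0.39 to -0.16). In the 57 features above 25% and up to 50% it was 0.453 TPM in TKO_FL and 0.576 TPM in TKO (log2 -0.35, interval -0.47 to -0.22). In the 26 features with no such copy it was 0.934 TPM in TKO_FL and 0.926 TPM in TKO (log2 0.01, interval -0.53 to 0.54), and this class includes MERVL-int_dup170. In the 9 features above 50% it was 0.498 TPM in TKO_FL and 0.540 TPM in TKO (log2 -0.12, interval -0.51 to 0.30). The intervals of the 4 classes overlap. A feature joins copies of different lengths, and fragments can be shared between copies of different classes. The classes are therefore not independent and do not set long copies against short ones.

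LTR features were likewise grouped by how many of their copies lie beside a MERVL-int copy. In the 62 features with at most 50% such copies, the pooled level was 0.325 TPM in TKO_FL and 0.456 TPM in TKO (log2 -0.49, interval -0.85 to -0.12). In the 107 features above 50% and up to 75% it was 0.533 TPM in TKO_FL and 0.558 TPM in TKO (log2 -0.07, interval -0.24 to 0.12). In the 27 features above 75% it was 0.319 TPM in TKO_FL and 0.337 TPM in TKO (log2 -0.08, interval -1.04 to 0.83). These intervals overlap too, and fragments can likewise be shared between these classes.

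A few features are a single locus, all at the end of chromosome 1 for MERVL-int (17) and MT2_Mm (23) and of chromosome X for MERVL_2A-int (14). The 14 on chromosome X had no fragment in either library. The MERVL-int loci held 19.0 fragments in TKO_FL and 20.6 in TKO, and the MT2_Mm loci 7.34 in TKO_FL and 3.93 in TKO. There were 5 complete proviruses among them, with internal parts of 5326 to 5359 bases. The provirus at chr1:183539360-183545796 (plus strand) had 2.28 internal fragments in TKO_FL and 3.75 in TKO, and that at chr1:185621209-185627645 (minus strand) had 4 in TKO_FL and 2.6 in TKO. Together the 5 held 14.2 internal fragments in TKO_FL and 15.4 in TKO, with 2 higher and 3 lower in TKO_FL. A single provirus thus had too few fragments to show a difference at this depth. Its fractions of a fragment come from reads that also fit other places.

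Set among other repeats, the 3 names were near the middle by the fold of summed TPM, while MERVL-int was lower in the order by pooled level. There were 969 repeat names with at least 5 summed TPM in one library. Of them 64 (6.60%) stood 2-fold or more higher in TKO_FL and 65 (6.71%) 2-fold or more lower, and 0 of the 3 names was among them. The median log2 fold of the summed TPM over all names was -0.01, and the middle 95% ran from -1.89 to 1.58. By that fold MERVL-int stood at percentile 43.8, MERVL_2A-int at 31.2 and MT2_Mm at 48.2. By the pooled level the percentiles were 20.2 for MERVL-int, 48.7 for MERVL_2A-int and 32.2 for MT2_Mm. The pooled log2 folds of all names had a lower quartile of -0.23 and an upper quartile of 0.19. MERVL-int, at -0.29, lay below the lower quartile, and the other names lay between the quartiles. In summed level MERVL-int ranked 307 in TKO_FL and 309 in TKO. IAPEz-int, the internal part of a retrovirus that is known to be kept silent by DNA methylation, had 317 TPM in TKO_FL and 1891 TPM in TKO (pooled log2 -2.65, interval -2.69 to -2.62). That interval does not overlap those of MERVL-int, MERVL_2A-int or MT2_Mm.

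Other MT2 LTRs of the ERVL family had pooled folds of similar size. MT2A had a pooled log2 fold of -0.07 (interval -0.20 to 0.06) and MT2B of 0.00 (interval -0.08 to 0.08). MT2B1 was at -0.26 (interval -0.45 to -0.08), MT2C_Mm at -0.26 (interval -0.58 to 0.05) and MT2B2 at 0.19 (interval 0.07 to 0.31). The MT2_Mm interval overlapped those of MT2A, MT2B, MT2B1 and MT2C_Mm, but not that of MT2B2. MMETn-int, the internal part of the MusD-related early transposon, had a pooled log2 fold of 0.18 (interval 0.16 to 0.20), which lies outside the MERVL-int interval.

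**Figure D4:**
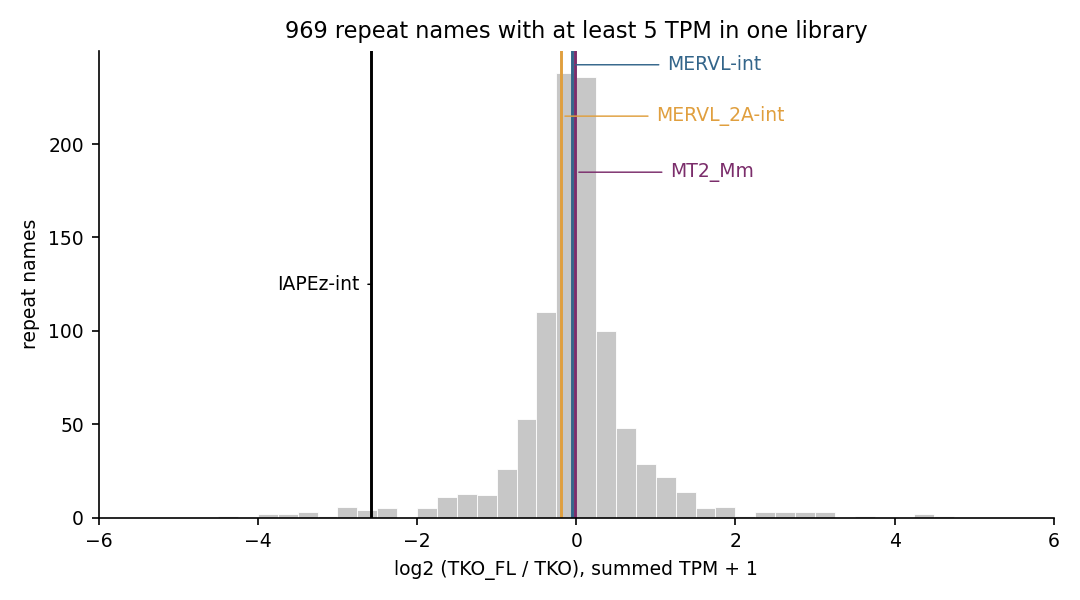
Number of repeat names (vertical axis) by log2 fold of summed TPM + 1, TKO_FL over TKO, for 969 names with at least 5 TPM in one library. The lines of MERVL-int, MERVL_2A-int and MT2_Mm lie between -0.19 and -0.02 in the central peak, and IAPEz-int lies at -2.57.

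Host genes of the 2-cell programme are known to be transcribed together with MERVL. A list of 47 such genes in the table was used, of which 21 had at least 1 TPM in TKO_FL or TKO. Of these, 2 were at least 2-fold higher and 1 lower in TKO_FL, with a median log2 fold of 0.05, beside 3.58% higher and 3.06% lower among 13642 genes. Of the 21, 15 reached 1 TPM in both libraries, 4 in TKO_FL alone and 2 in TKO alone. Dux, the activator, had 3.61 TPM in TKO_FL (33 fragments) and 1.22 TPM in TKO (12 fragments), a log2 fold of 1.05 (interval of the ratio 0.58 to 2.65). Gm12794, a Prame-type gene, had 4.11 TPM in TKO_FL and 1.42 TPM in TKO (log2 1.08). Trim43b, a tripartite motif gene, had 0.78 TPM in TKO_FL and 3.00 TPM in TKO (log2 -1.17, interval of the ratio -3.26 to -0.80). The 5 Zscan4 genes, which mark 2-cell-like cells and act at telomeres, summed to 5.06 TPM in TKO_FL (49 fragments) and 7.75 TPM in TKO (81 fragments). Tmem92 had 4.45 TPM in TKO_FL and 4.42 TPM in TKO. Dux, Zscan4 and most other families of the list have near-identical copies, so their values are uncertain. With a pseudocount of 5 TPM, 0 of the 21 genes passed 2-fold in either direction.

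The repeat values used here do not cover TKO_602, so the 2-cell genes are the measure of this programme in that library. All 47 summed to 25.3 CPM in TKO_602, 59.8 CPM in TKO_FL and 52.8 CPM in TKO, and Ddit4l held most of the sum in TKO_602. Of 17 genes with at least 1 CPM in TKO_602 or TKO, 0 were at least 2-fold higher and 9 lower in TKO_602, with a median log2 fold of -1.18, beside 11.0% higher and 8.06% lower among 13748 genes. Against TKO_FL, 0 of 18 were higher and 11 lower, with a median of -1.09, beside 6.75% higher and 4.87% lower among 13683 genes. Of the 17 genes, 15 reached 1 CPM in TKO alone, and of the 18, 16 did so in TKO_FL alone. A gene that passes in this way is lower in TKO_602 by the choice of genes, so these counts and medians describe the genes that passed and are no support for a difference of the list. The 2 comparisons share the TKO_602 library. Most of these genes had few reads, and with a pseudocount of 5 CPM 0 were 2-fold lower, with medians of -0.38 against TKO and -0.35 against TKO_FL. The Zscan4 genes summed to 0.223 CPM in TKO_602, 4.94 CPM in TKO_FL and 7.63 CPM in TKO, from 10 reads in TKO_602, 95 in TKO_FL and 158 in TKO. The log2 ratio of that sum was -5.10 for TKO_602 against TKO (interval -6.76 to -3.81) and -4.47 against TKO_FL (interval -6.17 to -3.16). Tmem92 had 0.379 CPM in TKO_602, 4.26 CPM in TKO_FL and 4.44 CPM in TKO. Dux had 0.513 CPM in TKO_602, 2.44 CPM in TKO_FL and 1.01 CPM in TKO, and its interval held equal levels for TKO_602 against TKO. Ddit4l, a stress-response gene on the list, had 16.8 CPM in TKO_602, 19.2 CPM in TKO_FL and 12.7 CPM in TKO, and Obox6, an oocyte homeobox gene, had 1.27 CPM in TKO_602, 0.312 CPM in TKO_FL and 0.386 CPM in TKO. The alignment of TKO_602 came from another folder and the library was the deepest, so genotype and batch cannot be told apart there.

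**Figure D5:**
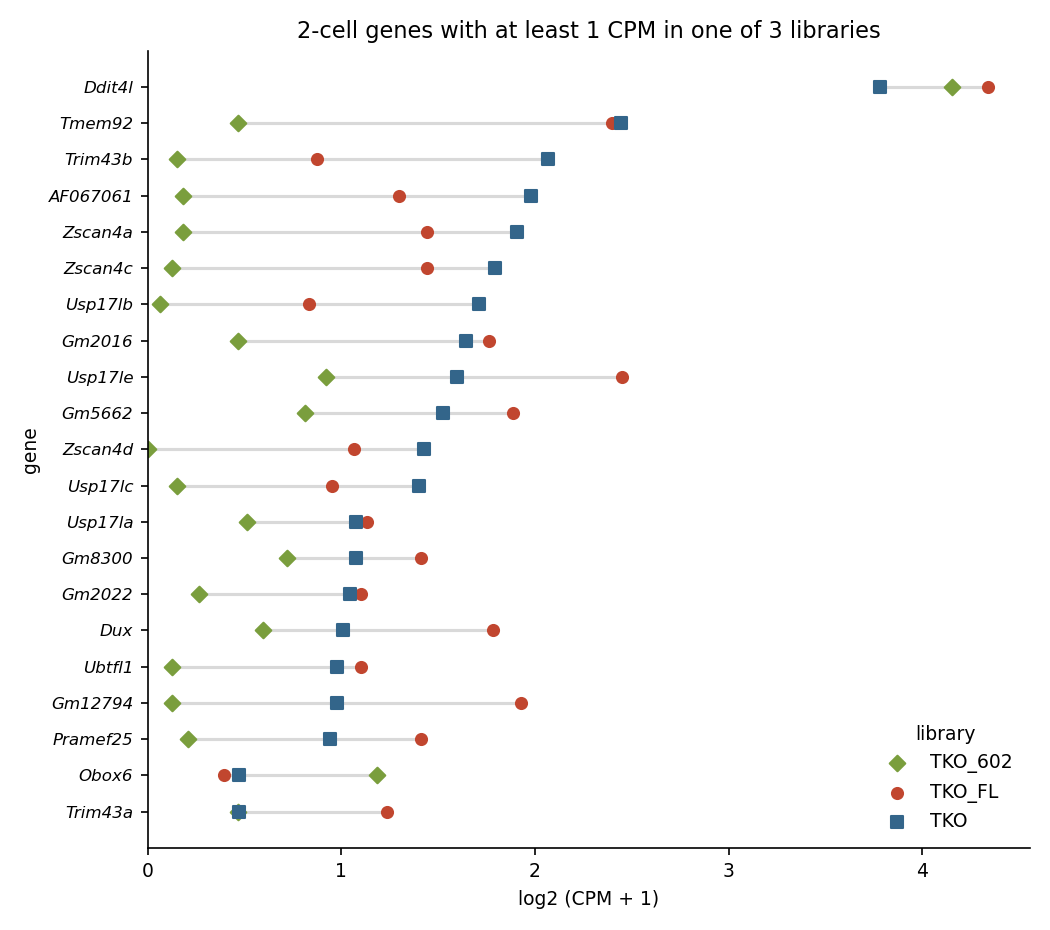
log2(CPM + 1) of 21 genes of the 2-cell list with at least 1 CPM in one of 3 libraries, with genes ordered by their TKO value; diamonds are TKO_602, circles TKO_FL and squares TKO, and grey lines join the lowest and highest. Ddit4l and Obox6 are the 2 genes that reach 1 CPM in TKO_602.

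Genes for factors known to silence MERVL or its host programme mostly differed by less than 2-fold between TKO_FL and TKO. All 33 on the list had at least 1 TPM. In TKO_FL 2 were at least 2-fold higher and 0 lower, with a median log2 fold of -0.02, beside 3.58% higher and 3.06% lower among 13642 genes. Those 2 were Dnmt1, given above, and Spen, a transcriptional corepressor, with 53.3 TPM in TKO_FL and 23.4 TPM in TKO (log2 1.16, interval of the ratio 1.10 to 1.28). Trim28, the corepressor that zinc-finger proteins bring to retroviruses, had 1178 TPM in TKO_FL and 1568 TPM in TKO (log2 -0.41). Setdb1, a histone H3 lysine 9 methyltransferase, had 64.1 TPM in TKO_FL and 77.5 TPM in TKO. Ehmt2, which methylates the same residue, had 64.0 TPM in TKO_FL and 108 TPM in TKO (log2 -0.75). Kdm1a, a histone demethylase, had 198 TPM in TKO_FL and 190 TPM in TKO, and Zfp42, known as a repressor of MERVL, had 1591 TPM in TKO_FL and 1198 TPM in TKO. In TKO_602 against TKO, 1 of the 33 was higher and 4 were lower, beside 11.0% higher and 8.06% lower among 13748 genes. The higher one was Dnmt1, and the lower ones were Trim28, Lin28a, Ncl and L3mbtl2. Trim28 had 1101 CPM in TKO_602 and 2337 CPM in TKO (log2 -1.09). Of 8 genes for activators, Dux was the 1 gene that was 2-fold higher in TKO_FL, and 0 were lower, beside the same 3.58% and 3.06% of 13642 genes. Dppa2 had 181 TPM in TKO_FL and 186 TPM in TKO, and Dppa4 had 208 TPM in TKO_FL and 226 TPM in TKO. In TKO_602 against TKO, 1 of the 8 activator genes was 2-fold higher and 1 lower, beside the same 11.0% and 8.06% of 13748 genes. Tbx3 was higher, with 112 CPM in TKO_602 and 50.7 CPM in TKO. Dppa2 was lower, with 74.3 CPM in TKO_602 and 166 CPM in TKO.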

How the data were processed

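Poly(A)-selected RNA of 3 libraries was analysed, grouped by genotype in the labels; the 8 samples of immunoprecipitated DNA were not analysed here. Per the submitters' processing notes, Trim Galore, HISAT2, SAMtools, Subread and featureCounts were used with the mm10 genome. Per the file headers, the deposited gene count table was made by featureCounts 2.0.6 without options for strand, read pairs or multi-mapping reads. The deposited gene signal holds 10 times TPM, since its columns sum to 10000000. The repeat columns sum to somewhat less, 9804588.3 in TKO_FL and 9802099.5 in TKO, and were taken to be on the same scale. Values of both were divided by 10. No source used here gives the repeat annotation or the counting command. Each table has 11 columns of other libraries, which were not used.

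Fragments were recovered as value times length, taking the commonest value as 1 fragment; the smallest step was 0.2. Log2 folds use a pseudocount of 1, features and genes with at least 1 TPM or CPM in one library, repeat names with at least 5 TPM and a 2-fold threshold. TMM factors came from edgeR 4.0.16 in R 4.3.3 (1.04 for TKO_602, 0.983 for TKO_FL, 0.980 for TKO); no edgeR test was run, since 1 library per genotype allows none. Exact 95% binomial intervals come from rounded fragments, or reads divided by 2 for TKO_602; PCR duplicates and shared fragments are not covered. Other steps used Python 3.11.15, numpy 2.4.6, pandas 2.3.3, scipy 1.17.1 and Biopython 1.88. Promoter sequences are RefSeq's, GRCm38.p6. Fold and interval steps were tested on simulated whole fragments, with large changes placed in deep features. Shared fragments and folds as small as those of the repeat names here were not simulated.

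Features named in the text are the 5 with the highest mean TPM per repeat name, features with at least 5 TPM that differ most, and all those past 2-fold that are counted; a selection is given. Gene lists comprise 2-cell, activator, silencing, pluripotency, feeder and primitive endoderm genes. Members and lists were chosen with earlier results of these data known, and genes with MT2_Mm starts were chosen by overlap. Alternatives covered pseudocounts, scaling, filters, whole fragments and left-out features.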

Additional observations from a re-analysis of the deposited data

How the results depend on the processing

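The summed MERVL-int fold (log2 -0.06) moved most with the features included: it was -0.29 as fragments over summed length, -0.31 without the highest feature, -0.28 without the 10 highest, -0.31 without features on expressed exons, summed or pooled (alternatives chosen after seeing the data), and -1.88 over features with whole fragments in both libraries, of which 2 had signal. MERVL_2A-int (-0.19) moved to -0.014 as fragments over summed length and, without features on expressed exons, to -0.34 summed and 0.031 pooled. MT2_Mm (-0.02) moved to -0.23 pooled without those features and to -0.70 over features with whole fragments, of which 1 had signal. The pooled MERVL_2A-int value of 0.031 was the 1 fold of these names with another sign. The counts of 2-fold features, 3 higher and 8 lower, became 5 higher and 10 lower at a pseudocount of 0.1 TPM. They became 0 and 0 at 5 TPM, scaled by gene fragments or with at least 5 TPM. Scaling by gene fragments lowered the summed MERVL-int value in TKO_FL from 121 to 14.2, while the minimum and pseudocount of 1 were kept. That left 6 of the 42 features, so the 0 and 0 under this scaling come with a stricter filter. A minimum of 5 TPM left 8 features. The counts were 0 and 5 over features with whole fragments, and 0 and 2 with at least 10 fragments. For the 2-cell genes of TKO_FL against TKO, 2 higher and 1 lower became 4 and 3 at 0.1 TPM, and 0 and 0 at 5 TPM or with at least 5 TPM, which left 3 genes. For TKO_602, the 0 higher genes became 1 in both comparisons at 0.1 CPM, and the 9 and 11 lower genes became 0 at 5 CPM, where the medians were -0.38 against TKO and -0.35 against TKO_FL. The cause of these changes was not tested. In all, 32 alternative values moved and 45 did not. No paired analysis was possible because there is 1 library per genotype and no replicate number, and for the same reason no replicate could be left out. Depth limits single features: 134 of 727 had 10 fragments in one library.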
